A study of Mus musculus with 15 samples.

Results

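The 8 genes of proximal ammoniagenesis and bicarbonate transport were examined in whole mouse kidney. They were chosen by name for their known roles, and no measured value enters the rule, but earlier results of these data were known. The genes are Slc38a3, Glud1, Pck1, Fbp1, Slc9a3, Slc4a4, Car2 and Car4. They are 8 of the 26823 named genes in the deposited tables, and all 8 were among the 15789 genes with enough counts to be tested.

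In the proximal tubule, glutamine is taken up and broken down to ammonium and an acid carbon skeleton, and burning or converting that skeleton to glucose yields new bicarbonate. Filtered bicarbonate is reclaimed by the same cells: acid secreted at the brush border turns it to carbon dioxide, carbonic anhydrases speed the interconversion, and a cotransporter returns bicarbonate to blood. Phosphate reabsorption, the step that FGF23 lowers, sits in these cells as well.

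The 15 mice fell into 3 groups of 5, all killed at 4 months of age, and 1 RNA-seq library was made from total kidney RNA of each. The cFGF23-Hyp mice carried the Phex_KO genotype (Hyp-Duk in the design text) and received AAV-cFGF23, an adeno-associated virus coding for the carboxy-terminal part of FGF23, into a vein at the age of 4 weeks, at a dose of 1e12 vector genomes. The Hyp mice carried the same genotype and received PBS, and the WT mice received PBS. Hyp mice lack working Phex and have high FGF23, and the C-terminal part can compete with the intact hormone at its receptor. Neither the promoter of the vector nor its target cells are named in the labels.

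Libraries held 13083190 to 21829906 counts. Phex had at most 3 counts in any library (0 in all cFGF23-Hyp libraries, 0 to 3 in Hyp and 0 to 1 in WT), so kidney counts of Phex could not check the genotype. The proximal markers Slc34a1 (median 4508 CPM, read counts scaled to one common library size), Lrp2 (2172 CPM) and Slc5a2 (325 CPM) were abundant, as the tissue label requires. The 3 libraries named next stand apart. The library titled WT_5 has the genotype label Phex_KO. Its summed CPM over 6 hepatocyte genes, mostly Ttr, was 468, and it was 49.0 to 88.6 in WT_1 to WT_4. The same sum was 60.2 in cFGF23-Hyp_5, whereas cFGF23-Hyp_1 to cFGF23-Hyp_4 had 700 to 1270. The library cFGF23-Hyp_3 lay at 76.1 on the first principal component, against -17.1 to 11.9 in the other 14, with 20444 genes detected, against 21492 to 23169. For some results of the 8 genes, though not for all, the value without some or all of these libraries is given as well.

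Promoter sequences are shown for Pck1, Fbp1, Slc9a3 and Car4, the genes on which most of the results turn, with the control motifs searched for in them. The RefSeq promoter windows used here (GRCm38.p6) matched 6 of the 8 genes by symbol, and those of Car2 and Slc38a3 were not analysed here. Each run is the 250 bases before the start, 5′ to 3′ on the strand of the gene. A stretch of bases after the start was found in an annotated transcript for Pck1 and Fbp1, but not for Slc9a3 and Car4. Capitals mark matches to the cAMP response element core ACGTCA, the GC box GGGCGG or TATAAA on either strand, motifs that do not overlap in these windows. Pck1 lies at chr2:173152823-173153072 (plus strand), Fbp1 at chr13:62888283-62888532 (minus strand), Slc9a3 at chr13:74121163-74121412 (plus strand) and Car4 at chr11:84957504-84957753 (plus strand).
Pck1: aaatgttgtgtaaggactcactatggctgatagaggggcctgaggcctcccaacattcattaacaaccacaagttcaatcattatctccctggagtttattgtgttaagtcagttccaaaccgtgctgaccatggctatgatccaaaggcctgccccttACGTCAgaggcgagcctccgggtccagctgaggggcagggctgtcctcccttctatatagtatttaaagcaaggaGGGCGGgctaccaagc
Fbp1: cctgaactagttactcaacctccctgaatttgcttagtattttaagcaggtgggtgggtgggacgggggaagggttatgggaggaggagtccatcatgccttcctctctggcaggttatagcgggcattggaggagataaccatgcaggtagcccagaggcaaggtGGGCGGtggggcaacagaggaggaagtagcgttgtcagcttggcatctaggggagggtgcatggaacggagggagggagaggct
Slc9a3: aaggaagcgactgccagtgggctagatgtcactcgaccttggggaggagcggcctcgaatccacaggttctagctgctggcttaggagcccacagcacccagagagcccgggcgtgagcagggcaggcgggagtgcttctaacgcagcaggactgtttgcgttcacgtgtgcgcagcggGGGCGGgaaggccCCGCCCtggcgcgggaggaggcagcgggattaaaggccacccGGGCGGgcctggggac
Car4: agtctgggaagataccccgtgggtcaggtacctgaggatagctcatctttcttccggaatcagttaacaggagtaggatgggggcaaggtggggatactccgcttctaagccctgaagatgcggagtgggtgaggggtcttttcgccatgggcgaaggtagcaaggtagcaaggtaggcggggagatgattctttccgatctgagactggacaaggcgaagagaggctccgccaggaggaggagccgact

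The Pck1 window held ACGTCA 91 bases before the start, a motif present in 6.47% of 32851 mouse windows of this length, and a GC box 16 bases before it. GC boxes were common, in 32.7% of windows. The Fbp1 window had 1, at 84 bases, and the Slc9a3 window had 3, at 71, 58 and 16 bases. TATAAA, found in 12.4% of windows, was in none of these 4, and the Car4 window had no match to any of the motifs. A match describes letters only.

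Expressed per kilobase of gene length, the levels of the 8 genes spanned a wide range in every kidney. Pck1 (mean 790 CPM per kilobase over 15 libraries) and Fbp1 (718) were highest and could not be ordered: Pck1 exceeded Fbp1 in 2 of 5 cFGF23-Hyp, 3 of 5 Hyp and 4 of 5 WT libraries. Car2 (184) followed below Fbp1 in all 15 libraries, and Glud1 (132) below Car2 in all 15. Car4 (79.3) lay below Glud1 in 14 of 15 libraries and above Slc4a4 (62.0) in 13 of 15. Slc9a3 (28.8) and Slc38a3 (16) were lowest. Together the 8 genes took 0.487% to 0.840% of the counts of a library.

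**Figure D1:**
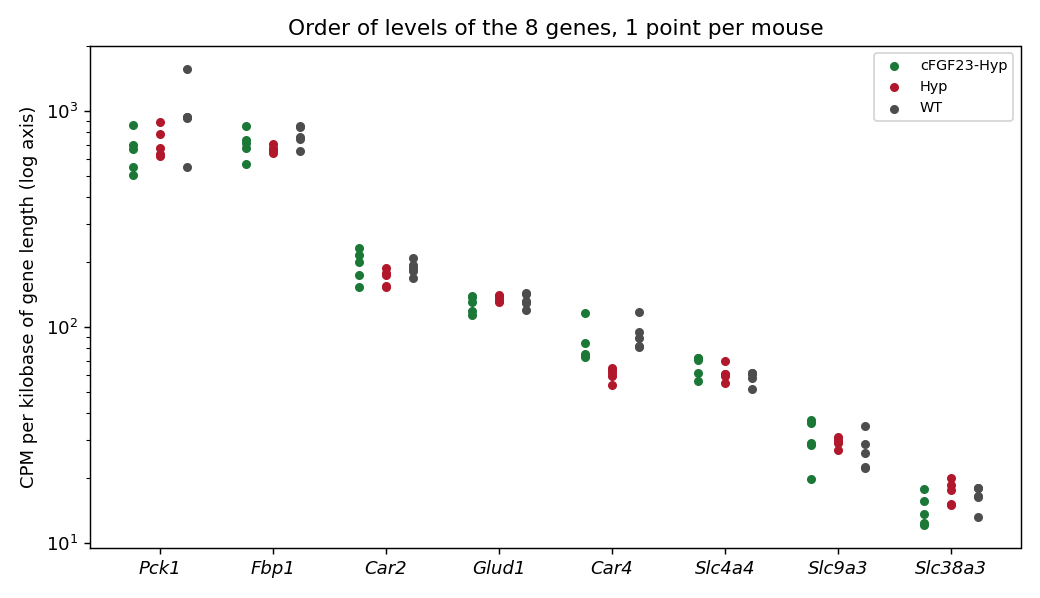
Level of each gene in CPM per kilobase of gene length (log axis), 1 point per mouse, with cFGF23-Hyp, Hyp and WT side by side. Pck1 and Fbp1 overlap at the top (means 790 and 718), and Slc38a3 is lowest (16).

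Spread between mice was very unequal. Pck1 varied most, with a highest value 3.10 times its lowest and a coefficient of variation of 33.5% over 15 libraries. Glud1 varied least, at 1.26 times and 6.76%. Car4 (2.17 times), Slc9a3 (1.88) and Slc38a3 (1.66) came between, and Fbp1, Car2 and Slc4a4 stayed within 1.51 times.

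Hyp against WT asks what loss of Phex with high FGF23 does to these genes, and cFGF23-Hyp against Hyp asks whether the vector moves them. The clearest pattern lay with Car4. Its RNA was lower in Hyp than in every WT kidney, and in cFGF23-Hyp it lay above every Hyp kidney, while 3 of 5 cFGF23-Hyp kidneys lay below every WT kidney. Pck1 was lower on average in both Phex_KO groups, with wide spread. The glutamine genes, the proton and bicarbonate transporters, Fbp1 and Car2 had log2 fold changes of -0.21 to 0.13 between Hyp and WT. No gene of the 8 passed an adjusted p of 0.05 in any comparison (edgeR, 15 libraries in 1 fit). In whole-kidney RNA, fewer proximal cells and less RNA per cell cannot be told apart.

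Few genes passed over the whole table. In Hyp against WT, 54 of 15789 genes were called (0.342%) and 0 of the 8, while 2 of the 8 (Pck1 and Car4, both lower) had an unadjusted p below 0.05, against 13.4% of all genes. In cFGF23-Hyp against Hyp, edgeR called 0 genes (0%) and DESeq2 and limma-voom called 116 and 2. At an unadjusted p below 0.05 there were 1647 genes (10.4%), with 1 of the 8 higher (Car4, against 5.36% of all genes) and 1 lower (Slc38a3, against 5.07%). In cFGF23-Hyp against WT, edgeR called 0 genes (0%), DESeq2 6 and limma-voom 0, and 905 genes (5.73%) had an unadjusted p below 0.05, with 1 of the 8, Pck1, lower and 0 higher, against 2.29% and 3.44% of all genes. The median log2 fold change of the 8 was 0.06 in cFGF23-Hyp against Hyp, -0.09 in cFGF23-Hyp against WT and -0.07 in Hyp against WT, beside 0.01, 0.02 and 0.00 over all genes.

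**Figure D2:**
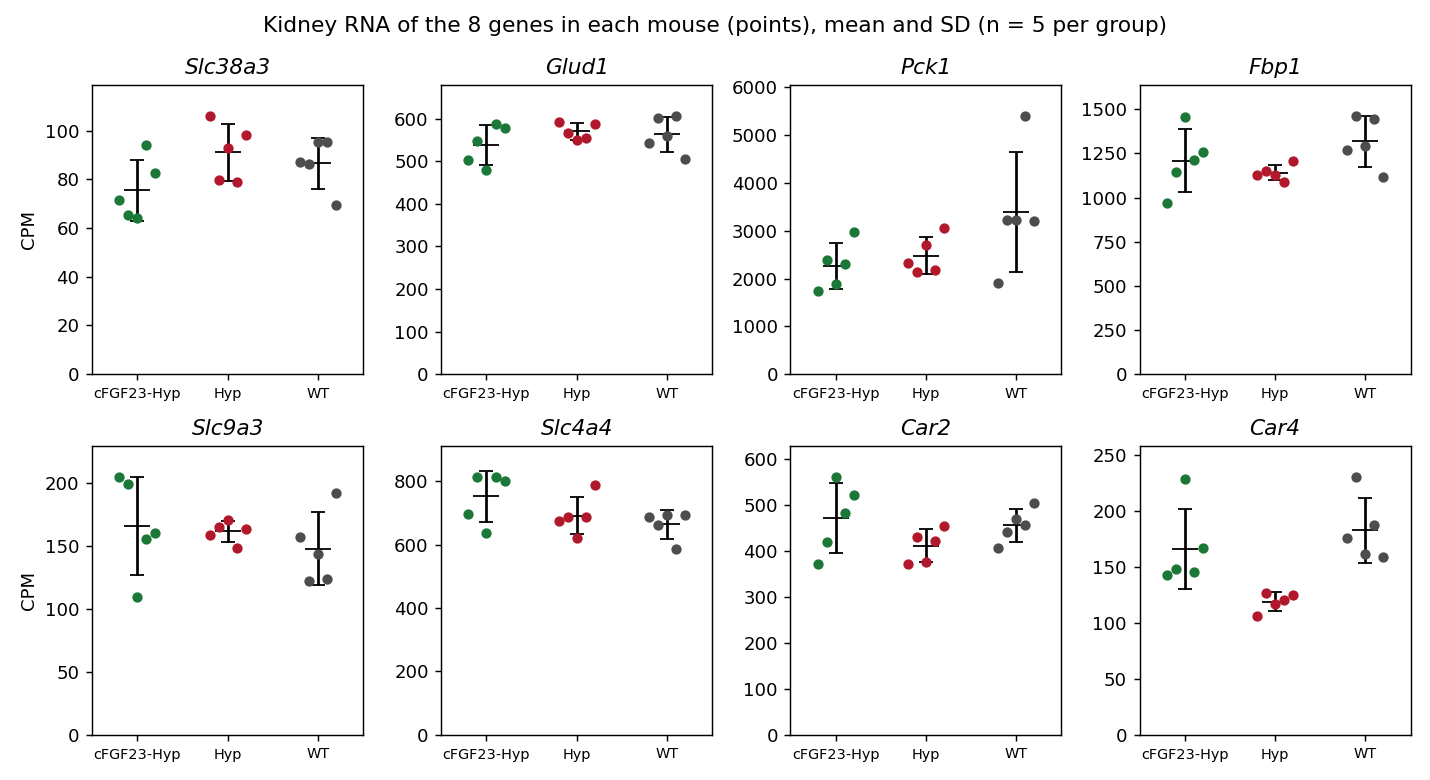
CPM of each of the 8 genes in every mouse (points) for cFGF23-Hyp, Hyp and WT, with the group mean and SD (n = 5 each), each axis starting at 0. All Hyp points for Car4 lie below both other groups, and WT_4 is far above the rest for Pck1 (5405 CPM).

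**Figure D3:**
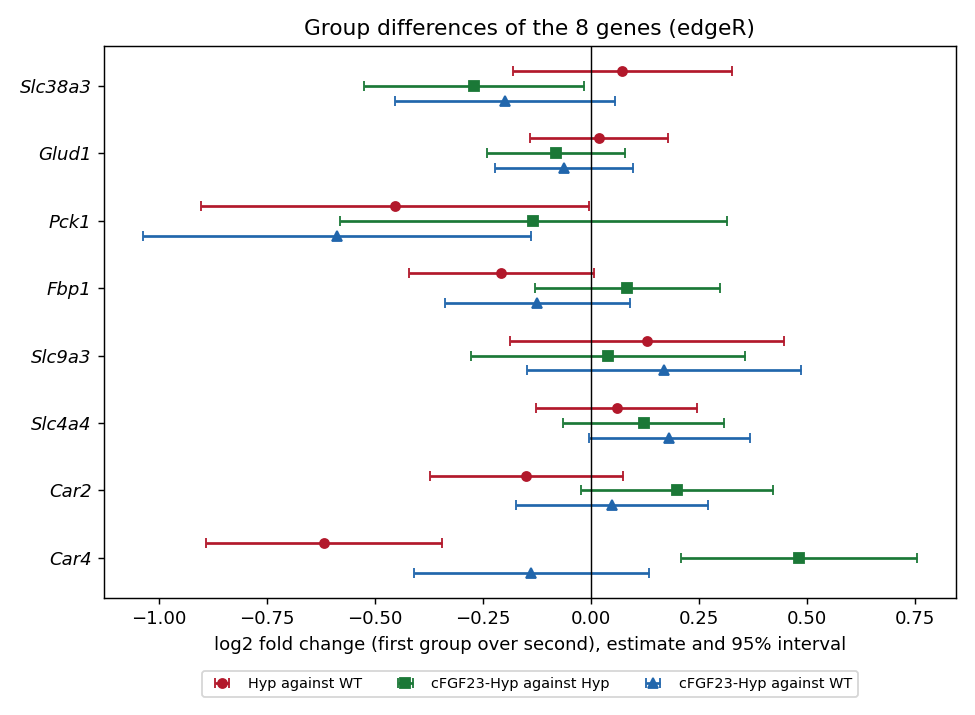
Log2 fold change of each gene with its 95% interval from the edgeR fit, with circles for Hyp against WT, squares for cFGF23-Hyp against Hyp, and triangles for cFGF23-Hyp against WT. The Car4 interval lies left of 0 for Hyp against WT (-0.89 to -0.35) and right of 0 for cFGF23-Hyp against Hyp (0.21 to 0.75).

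Glutamine uptake and the first mitochondrial steps come first. Slc38a3 (SNAT3, ENSMUSG00000010064, chromosome 9, 107527833 to 107546729, minus strand as deposited) codes for the basolateral glutamine transporter whose RNA is known to increase in metabolic acidosis. Its values in mice 1 to 5 were 71.7, 65.3, 64.0, 94.0 and 82.5 CPM in cFGF23-Hyp, 106, 79.8, 92.7, 78.7 and 98.3 CPM in Hyp, and 87.0, 86.3, 95.3, 95.3 and 69.6 CPM in WT. Of the 5 cFGF23-Hyp kidneys, 3 were below all Hyp kidneys and 2 were within the Hyp range. The log2 fold change of cFGF23-Hyp against Hyp was -0.27 ± 0.12 (SE, unadjusted p = 0.0381, adjusted p = 0.458). Hyp against WT gave 0.07 ± 0.12 (adjusted p = 0.828), with an interval of -0.18 to 0.33, and cFGF23-Hyp against WT gave -0.20 ± 0.12 (adjusted p = 0.955).

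Glud1, glutamate dehydrogenase (ENSMUSG00000021794, chromosome 14, 34032684 to 34067222, plus strand as deposited), releases the second ammonium from glutamate in the mitochondrion. It averaged 539 ± 47.0 CPM in cFGF23-Hyp, 570 ± 19.2 CPM in Hyp and 563 ± 41.7 CPM in WT (SD, n = 5 each). The groups overlapped throughout, from 480 to 587 CPM in cFGF23-Hyp, 550 to 593 CPM in Hyp and 506 to 606 CPM in WT. The log2 difference was -0.08 for cFGF23-Hyp against Hyp (interval -0.24 to 0.08, adjusted p = 0.698) and 0.02 for Hyp against WT (interval -0.14 to 0.18, adjusted p = 0.935). These are the narrowest intervals among the 8 genes.

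Gluconeogenesis uses the carbon left by glutamine. Pck1 (ENSMUSG00000027513, chromosome 2, 172994841 to 173001066, plus strand as deposited) codes for cytosolic phosphoenolpyruvate carboxykinase, which commits that carbon to glucose and is known in kidney as a gene induced by acidosis. Mice 1 to 5 had 1745, 2387, 1885, 2306 and 2967 CPM in cFGF23-Hyp, 2319, 2129, 2705, 2185 and 3053 CPM in Hyp, and 1902, 3226, 3229, 5405 and 3203 CPM in WT. In WT, 4 kidneys were above every Hyp and cFGF23-Hyp kidney, while WT_1 was among the lowest of all. These 4 include WT_5 (3203 CPM), whose genotype label is Phex_KO. The mean was 2258 ± 481 CPM in cFGF23-Hyp, 2478 ± 392 CPM in Hyp and 3393 ± 1261 CPM in WT (SD, n = 5 each).

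For Pck1 the log2 fold change was -0.59 ± 0.21 in cFGF23-Hyp against WT (unadjusted p = 0.0135, adjusted p = 0.76) and -0.45 ± 0.21 in Hyp against WT (unadjusted p = 0.048, adjusted p = 0.369). Between cFGF23-Hyp and Hyp it was -0.13 ± 0.21, with an interval of -0.58 to 0.31 (adjusted p = 0.827). The Hyp against WT value depended on single WT kidneys: it was -0.22 (adjusted p = 0.702) without WT_4 and -0.61 without WT_1. With WT_5 placed in Hyp it was -0.405 (adjusted p = 0.382). In cFGF23-Hyp against WT it was -0.35 without WT_4, -0.74 without WT_1 and -0.71 (adjusted p = 0.31) without cFGF23-Hyp_5. The cFGF23-Hyp against Hyp value was -0.05 without Hyp_5 or cFGF23-Hyp_1, -0.07 without cFGF23-Hyp_3 and -0.25 without cFGF23-Hyp_5. The WT_4 library gave 0.510% of its counts to Pck1 alone.

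Fbp1 (ENSMUSG00000069805, chromosome 13, 63012567 to 63036096, minus strand as deposited), fructose-1,6-bisphosphatase, acts further along the same route. Its CPM in mice 1 to 5 was 969, 1145, 1457, 1213 and 1257 in cFGF23-Hyp, 1127, 1150, 1129, 1090 and 1205 in Hyp, and 1267, 1462, 1294, 1447 and 1116 in WT. Hyp kidneys were tightly grouped, and 4 of 5 WT kidneys were above all of them, while WT_5 (1116 CPM) lay inside the Hyp range. The log2 fold change was 0.08 ± 0.10 in cFGF23-Hyp against Hyp (adjusted p = 0.762), -0.12 ± 0.10 in cFGF23-Hyp against WT (adjusted p = 0.996) and -0.21 ± 0.10 in Hyp against WT (unadjusted p = 0.0561, adjusted p = 0.389). In cFGF23-Hyp against WT it was -0.20 without cFGF23-Hyp_3, -0.05 without cFGF23-Hyp_1 and -0.30 (adjusted p = 0.0741) without WT_5, cFGF23-Hyp_5 and cFGF23-Hyp_3. Without WT_5, cFGF23-Hyp_5 and cFGF23-Hyp_3, Hyp against WT passed at an adjusted p of 0.0451. In the authors' deposited table it has a log2 fold change of -0.21 and an adjusted p of 0.0602.

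Proton and bicarbonate transport across the tubule wall rests on Slc9a3 and Slc4a4. Slc9a3 (NHE3, ENSMUSG00000036123, chromosome 13, 74269576 to 74317561, plus strand as deposited) is the brush-border sodium/proton exchanger. It had 205, 199, 109, 156 and 161 CPM in cFGF23-Hyp mice 1 to 5, 159, 166, 171, 149 and 164 CPM in Hyp mice, and 158, 122, 144, 124 and 192 CPM in WT mice. The extremes were both in cFGF23-Hyp, and Hyp kidneys lay inside the range of either other group. The log2 fold change was 0.04 ± 0.15 in cFGF23-Hyp against Hyp (adjusted p = 0.935), 0.17 ± 0.15 in cFGF23-Hyp against WT (adjusted p = 0.998) and 0.13 ± 0.15 in Hyp against WT (adjusted p = 0.746). Without WT_5, cFGF23-Hyp_5 and cFGF23-Hyp_3, cFGF23-Hyp against WT gave 0.45 (adjusted p = 0.032). With 1 library out that contrast ran from 0.08 (without cFGF23-Hyp_1) to 0.29 (without cFGF23-Hyp_3). Hyp against WT was 0.24 without WT_5, 0.07 without WT_4 and 0.065 without WT_2. In cFGF23-Hyp against Hyp the value was 0.16 (adjusted p = 0.674) without cFGF23-Hyp_3 and -0.05 without cFGF23-Hyp_1. It was 0.21 (adjusted p = 0.715) without WT_5, cFGF23-Hyp_5 and cFGF23-Hyp_3.

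Slc4a4 (NBCe1, ENSMUSG00000060961, chromosome 5, 89034345 to 89387512, plus strand as deposited) is the basolateral sodium bicarbonate cotransporter. It averaged 752 ± 80.7 CPM in cFGF23-Hyp, 692 ± 59.7 CPM in Hyp and 664 ± 45.3 CPM in WT (SD, n = 5 each). Values ran from 638 to 814 CPM in cFGF23-Hyp, 621 to 787 CPM in Hyp and 587 to 694 CPM in WT, so all groups overlapped. The log2 fold change was 0.12 ± 0.09 in cFGF23-Hyp against Hyp (adjusted p = 0.61), 0.18 ± 0.09 in cFGF23-Hyp against WT (unadjusted p = 0.0569, adjusted p = 0.886) and 0.06 ± 0.09 in Hyp against WT (adjusted p = 0.807).

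The carbonic anhydrases differed from each other. Car2 (ENSMUSG00000027562, chromosome 3, 14951333 to 14965830, plus strand as deposited) codes for the cytosolic enzyme, found in proximal and in intercalated cells. It averaged 472 ± 76.7 CPM in cFGF23-Hyp, 411 ± 36.1 CPM in Hyp and 456 ± 36.1 CPM in WT (SD, n = 5 each), with ranges of 371 to 562, 373 to 455 and 408 to 505 CPM in those groups. The log2 fold change was 0.20 ± 0.11 in cFGF23-Hyp against Hyp (unadjusted p = 0.0774, adjusted p = 0.507), 0.05 ± 0.11 in cFGF23-Hyp against WT (adjusted p = 0.999) and -0.15 ± 0.11 in Hyp against WT (adjusted p = 0.563). The summed intercalated-cell markers, 482 to 569 CPM in cFGF23-Hyp, 468 to 558 CPM in Hyp and 433 to 555 CPM in WT, overlapped between all groups.

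Car4 (ENSMUSG00000000805, chromosome 11, 84848612 to 84856870, plus strand as deposited) codes for the membrane-anchored enzyme on the outer face of the cell. In mice 1 to 5 it had 142, 148, 228, 146 and 166 CPM in cFGF23-Hyp, 106, 127, 117, 120 and 125 CPM in Hyp, and 175, 230, 161, 187 and 159 CPM in WT. The highest Hyp kidney was below the lowest WT kidney and below the lowest cFGF23-Hyp kidney. Groups that do not overlap were found for 5.74% of all genes in Hyp against WT and for 1.84% in cFGF23-Hyp against Hyp, and Car4 was the 1 gene of the 8 in each. In cFGF23-Hyp against WT, where 0.488% of genes had such groups, 0 of the 8 did.

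The mean of Car4 was 166 ± 35.9 CPM in cFGF23-Hyp, 119 ± 8.17 CPM in Hyp and 183 ± 29.0 CPM in WT (SD, n = 5 each). In Hyp the level was 0.651 of that in WT, a log2 fold change of -0.62 ± 0.13 (SE, interval -0.89 to -0.35). The unadjusted p of 0.000182 ranked 55 of 15789 and the adjusted p was 0.0508, just past the threshold. In the authors' deposited table the log2 fold change is -0.62 with an adjusted p of 3.65e-07.

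Car4 in cFGF23-Hyp was 1.40 times its level in Hyp, a log2 fold change of 0.48 ± 0.13 (interval 0.21 to 0.75, unadjusted p = 0.00175, adjusted p = 0.232). The authors' deposited table gives 0.48 with an adjusted p of 0.0690. Against WT, cFGF23-Hyp gave -0.14 ± 0.13 (interval -0.41 to 0.13, adjusted p = 0.998). That value was -0.28 (adjusted p = 0.31) without cFGF23-Hyp_3, -0.38 (adjusted p = 0.0602) without this library, WT_5 and cFGF23-Hyp_5, -0.09 without cFGF23-Hyp_1 and -0.04 without WT_2. Both contrasts with Hyp use the same 5 Hyp libraries. The library cFGF23-Hyp_3 held the highest value of its group, and without it the log2 fold change against Hyp was 0.34 (adjusted p = 0.264). With WT_5 and cFGF23-Hyp_5 left out as well, the log2 fold change was 0.29 (adjusted p = 0.461).

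The call on Car4 in Hyp against WT turned on small choices, though the size held. Over 26 alternatives the log2 fold change ran from -0.67 to -0.53, and the adjusted p from 0.00117 to 0.142, with 12 alternatives below 0.05. It was 0.00142 with DESeq2, 0.0471 with limma-voom and 0.009 with only the 2 groups in the fit. The value was 0.0305 without WT_5 and cFGF23-Hyp_5, and 0.0609 when WT_5 was moved to Hyp to follow its genotype label.

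**Figure D4:**
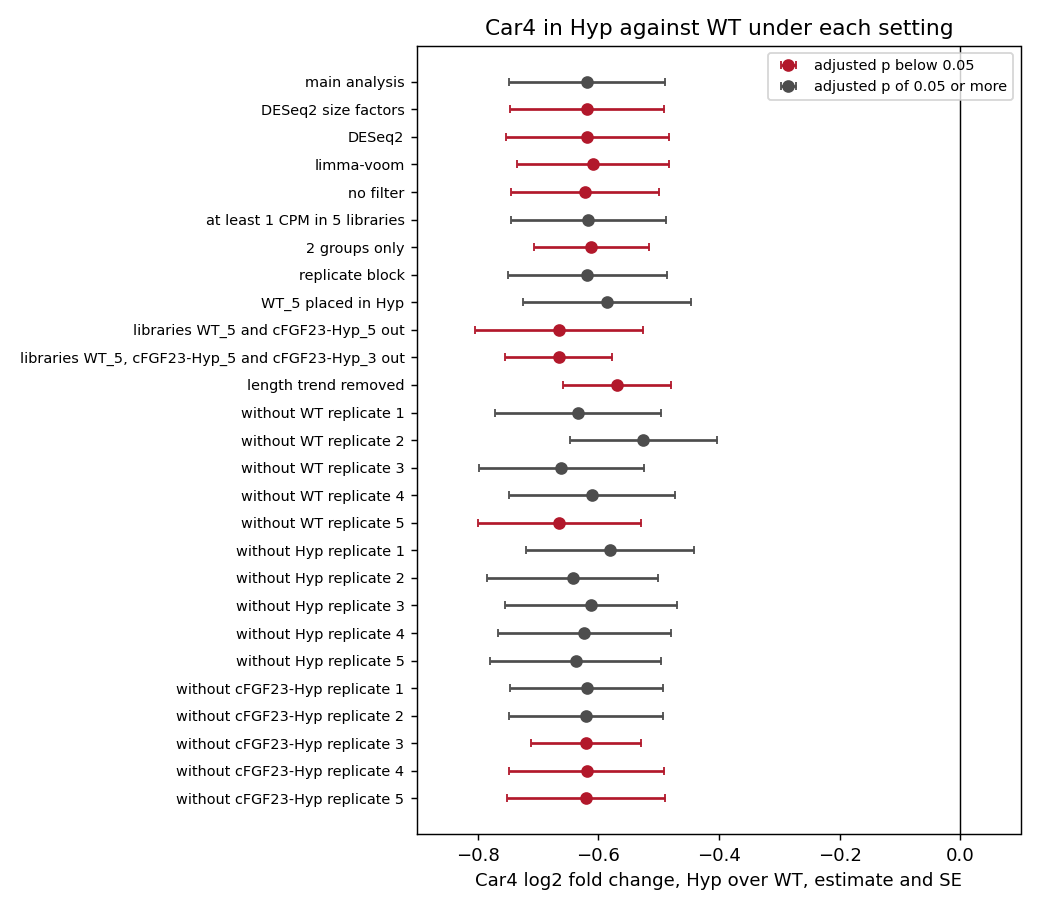
Log2 fold change of Car4 in Hyp over WT (point) with its SE (bar) in the main analysis and 26 alternatives, in red where the adjusted p is below 0.05. Every point lies between -0.67 and -0.53, and 12 of the 26 alternatives are red.

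Some of the 8 genes moved together from kidney to kidney. Over the 15 libraries, which share the same scaling, Fbp1 and Slc9a3 ran in opposite directions (Pearson r = -0.87 for log2 CPM), also without cFGF23-Hyp_3 (-0.85) and within groups (-0.90). Fbp1 and Car4 ran together (0.78, and 0.80 within groups), as did Glud1 and Slc38a3 (0.78, and 0.74 within groups). Slc9a3 and Car4 had r = -0.61, which was -0.47 without cFGF23-Hyp_3 and -0.80 within groups. Without that library Fbp1 and Car4 had 0.72, and Glud1 and Slc38a3 0.70.

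Gene length varied along with some of these values. Fbp1, Car4 and Car2 are the shortest of the 8 by deposited length (1702, 1966 and 2422 bases) and Slc38a3, Slc9a3 and Slc4a4 the longest (5277, 5504 and 11333 bases). In cFGF23-Hyp_3, where the deviation of all 15789 genes had a Spearman rho of -0.398 with length, the 3 short genes were at their group's highest and Slc38a3, Slc9a3 and Slc4a4 at its lowest. WT_4 (rho -0.215) and WT_2 (-0.164) had high Fbp1 and low Slc9a3, and cFGF23-Hyp_1 (0.233) had the lowest Fbp1 and the highest Slc9a3. Hyp_3, with the highest rho (0.234), had Fbp1 inside the Hyp range and the highest Slc9a3 of the Hyp kidneys (171 CPM). Slc4a4, the longest gene, had r = -0.30 with Fbp1, the shortest. Among the long genes, Slc4a4 had 0.49 with Slc9a3 and -0.10 with Slc38a3. Slc38a3 and Slc9a3 had -0.19, and -0.61 without cFGF23-Hyp_3. The part of gene length in these pairs was not tested. With the length trend of each library removed, Hyp against WT gave -0.57 for Car4 (adjusted p = 0.00963) and -0.15 for Fbp1.

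**Figure D5:**
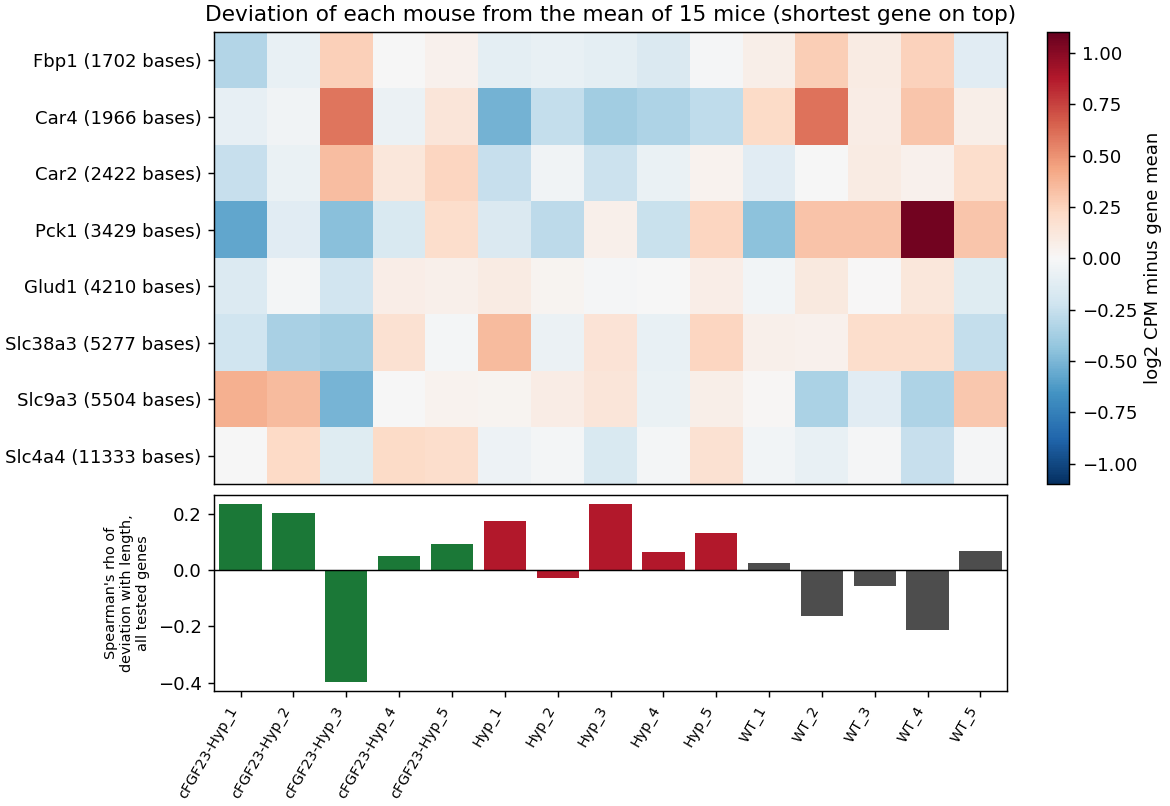
Upper panel, log2 CPM of each gene minus its mean over 15 mice (colour), genes ordered by deposited length and mice by group, cFGF23-Hyp, Hyp, WT. Lower panel, Spearman's rho between gene length and the deviation of 15789 genes in each library: cFGF23-Hyp_3, with the lowest rho (-0.398), has Fbp1, Car4 and Car2 high and Slc9a3 low.

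The tested gene most like each of the 8 over the 15 libraries, among 12920 candidates, was found by Pearson's r of log2 CPM. Taking the highest of so many values favours a high r, and how high it would run by chance was not tested. Car4 ran closest with Galnt14, a glycosyltransferase gene (r = 0.965, and 0.955 without cFGF23-Hyp_3). Fbp1 ran with Sqor, which codes for the mitochondrial enzyme that oxidises sulfide (0.942), Car2 with Ash2l (0.935), Slc9a3 with Tubgcp6 (0.931), Slc4a4 with Xrcc5 (0.878) and Glud1 with Impact (0.877). Slc38a3 ran with an entry that carries only the identifier ENSMUSG00000120623 (0.857). Pck1 ran with Slc20a1, a sodium-dependent phosphate transporter gene (0.869, and 0.823 without the 2 libraries farthest from the Pck1 median). Both were highest in WT_4, where Slc20a1 had 104 CPM, and Slc20a1 averaged 40.0 ± 1.75 CPM in cFGF23-Hyp, 40.0 ± 3.09 CPM in Hyp and 57.2 ± 27.6 CPM in WT (SD, n = 5 each).

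None of the other genes of these pathways was called by edgeR in the 15-library fit in any comparison. All gene lists, here and below, were chosen with earlier results of these data known. Counts from them describe the listed genes and are no test of a pathway. Among the other named pathway genes, DESeq2 called Irs2 (adjusted p = 0.0184), Slc1a1 (0.0268), Slc7a8 (0.0271) and Gk (0.0499) in Hyp against WT. It called Irs2 (0.0287) in cFGF23-Hyp against WT. Without WT_5, cFGF23-Hyp_5 and cFGF23-Hyp_3, edgeR called these 4 with G6pc (0.0327), Slc37a4 (0.00833), Pdzk1 (0.00375) and Sik1 (0.00471) in Hyp against WT. Of the other named pathway genes, Pdzk1 (0.0454) and Irs2 (0.037) were then called in cFGF23-Hyp against WT. Galnt14, named for its likeness to Car4, was called by DESeq2 in Hyp against WT (0.0363). Without the same libraries edgeR called Galnt14 in Hyp against WT (0.00414) and in cFGF23-Hyp against WT (0.0434). Of 19 tested genes of glutamine and glutamate use, 2 were higher and 7 lower in Hyp than in WT at an unadjusted p below 0.05, against 7.51% and 5.85% of all genes, with a median log2 fold change of -0.14. In cFGF23-Hyp against Hyp 2 were higher and 1 lower (5.36% and 5.07% of all genes, median 0.07), and in cFGF23-Hyp against WT likewise 2 and 1 (3.44% and 2.29% of all genes). Slc1a1, which codes for an apical glutamate transporter, had 187 to 212 CPM in Hyp and 233 to 265 CPM in WT. These ranges did not overlap, as for 5.74% of all genes (log2 fold change -0.27 ± 0.08, adjusted p = 0.135). Slc1a1 and Slc7a8 were named for their small p in this comparison, so their lack of overlap is no separate result. In cFGF23-Hyp, Slc1a1 had 214 to 280 CPM, above all Hyp kidneys (0.26 ± 0.08, adjusted p = 0.285). It was named by its p there too, and 1.84% of all genes had groups without overlap in that comparison. Slc7a8, the basolateral exchanger of neutral amino acids, had 73.2 to 124 CPM in Hyp and 42.6 to 64.6 CPM in WT, again without overlap (0.67 ± 0.18, adjusted p = 0.124). Me2, a mitochondrial malic enzyme, gave -0.44 ± 0.16 in cFGF23-Hyp against Hyp (adjusted p = 0.349) at 5.39 ± 0.517 and 7.35 ± 1.48 CPM (SD, n = 5 each).

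Of 18 gluconeogenesis genes, 3 were higher and 6 lower in Hyp than in WT at an unadjusted p below 0.05, against 7.51% and 5.85% of all genes, with a median of -0.11. This list too was chosen with earlier results known, so the counts are no test of the pathway. In cFGF23-Hyp against Hyp, 2 were higher and 1 lower (5.36% and 5.07% of all genes), with a median of 0.13. The last step of glucose release showed opposite signs in its parts. G6pc, the catalytic subunit of glucose-6-phosphatase, had 557 to 1180 CPM in Hyp and 422 to 797 CPM in WT (0.67 ± 0.21, adjusted p = 0.172). Slc37a4, the transporter that brings glucose-6-phosphate to it, had 224 to 293 CPM in Hyp and 321 to 429 CPM in WT (-0.49 ± 0.15, adjusted p = 0.18). These ranges did not overlap, as for 5.74% of all genes. Slc37a4 was named by its small p in cFGF23-Hyp against Hyp, which uses the same Hyp libraries. In cFGF23-Hyp against Hyp, G6pc gave -0.35 ± 0.21 (adjusted p = 0.539) and Slc37a4 0.46 ± 0.15 (adjusted p = 0.328). Gk, glycerol kinase, averaged 670 ± 61.9 CPM in Hyp and 816 ± 61.6 CPM in WT (-0.29 ± 0.09, adjusted p = 0.17).

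Of 18 genes of proximal acid-base transport, 1 was higher and 1 lower in Hyp than in WT at an unadjusted p below 0.05, near the 7.51% and 5.85% of all genes, with a median of -0.0007. The counts were again 1 and 1 in cFGF23-Hyp against Hyp (median 0.02), near the 5.36% and 5.07% of all genes. The lower one in Hyp was Pdzk1, a brush-border scaffold gene. It had 444 to 479 CPM in Hyp and 497 to 719 CPM in WT (-0.42 ± 0.13, adjusted p = 0.172). These ranges did not overlap, as for 5.74% of all genes, and Pdzk1 was named for its small p in this comparison. Pdzk1 in cFGF23-Hyp averaged 475 ± 94.3 CPM, and its log2 fold change against Hyp was 0.04 ± 0.13. The higher one in Hyp was Slc9a3r2, a scaffold gene for Slc9a3 (0.30 ± 0.13, adjusted p = 0.348). Car14, another membrane carbonic anhydrase, gave 0.53 ± 0.21 in cFGF23-Hyp against Hyp (adjusted p = 0.402), with 63.5 CPM in cFGF23-Hyp_4.

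Of 22 regulators of acid-base handling and gluconeogenesis, 2 were higher and 4 lower in Hyp than in WT at an unadjusted p below 0.05 (7.51% and 5.85% of all genes), while 14 of 22 were positive and the median was 0.07. Irs2, an insulin receptor substrate, had 32.6, 31.9, 19.4, 32.2 and 32.7 CPM in cFGF23-Hyp mice 1 to 5, 28.4, 25.4, 43.8, 41.1 and 40.0 CPM in Hyp mice, and 36.2, 75.4, 78.5, 135 and 43.6 CPM in WT mice. As with Pck1, WT_4 was highest and WT_1 the lowest WT kidney, a likeness picked out after the values were seen (r = 0.842 over 15 libraries, 0.74 without the 2 farthest). Its log2 fold change was -1.31 ± 0.29 in cFGF23-Hyp against WT (adjusted p = 0.668) and -1.05 ± 0.28 in Hyp against WT (adjusted p = 0.124). In cFGF23-Hyp against Hyp, 3 of the 22 were higher and 2 lower (5.36% and 5.07% of all genes, median 0.02). Sik1, a salt-inducible kinase gene, gave -0.49 ± 0.18 in cFGF23-Hyp against Hyp (adjusted p = 0.383) and 0.60 ± 0.18 in Hyp against WT (adjusted p = 0.167). Ednrb, an endothelin receptor gene, gave -0.47 ± 0.16 in cFGF23-Hyp against Hyp and 0.41 ± 0.16 in Hyp against WT (adjusted p = 0.34 and 0.281).

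Summed markers of some cell types differed between the groups, and those of others overlapped. The summed early proximal markers were 9679 to 11270 CPM in cFGF23-Hyp, 8962 to 9794 CPM in Hyp and 10080 to 11170 CPM in WT, so Hyp kidneys were below all WT kidneys, as for Car4. Slc34a1 was the largest part of this sum (median 4508 CPM over the 15 libraries), so the sum leans on 1 gene. Per gene, 4 of 8 early proximal markers were positive in Hyp against WT, with a median of 0.00. Late proximal sums overlapped (3121 to 4850 CPM in cFGF23-Hyp, 3317 to 4274 CPM in Hyp, 3787 to 5006 CPM in WT). Hyp and WT also overlapped in thick ascending limb sums (4014 to 5289 and 4271 to 4472 CPM). The same held for distal convoluted tubule (1107 to 1458 and 1008 to 1180 CPM) and principal-cell sums (581 to 825 and 513 to 794 CPM). It held too for erythroid (251 to 508 and 129 to 439 CPM) and fibroblast and smooth muscle sums (175 to 207 and 150 to 197 CPM). Endothelial markers were higher in Hyp than in WT for 8 of 8 genes (median 0.33) and lower in cFGF23-Hyp than in Hyp for 8 of 8 (median -0.30), with sums of 216 to 350 CPM in cFGF23-Hyp, 329 to 435 CPM in Hyp and 254 to 382 CPM in WT. Podocyte markers were higher in Hyp than in WT for 6 of 6 genes (median 0.39), with sums of 212 to 290 CPM in cFGF23-Hyp, 291 to 395 CPM in Hyp and 219 to 276 CPM in WT. Every Hyp podocyte sum was thus above all WT sums and, narrowly, above all cFGF23-Hyp sums. Summed leukocyte markers were 87.3 to 144 CPM in cFGF23-Hyp, 127 to 134 CPM in Hyp and 105 to 121 CPM in WT, so Hyp and WT did not overlap. The hepatocyte sum, mostly Ttr, was 60.2 to 1270 CPM in cFGF23-Hyp, 940 to 1867 CPM in Hyp and 49.0 to 468 CPM in WT, again with Hyp and WT apart. Ttr reached 1853 CPM, whereas Alb was at most 39.0 CPM in any library. The part of these markers in the Car4 values was not tested.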

How the data were processed

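RNA from total kidney of 15 mice was made into libraries with an NEBNext Ultra kit, per the labels' protocols, which do not say if strand was kept. Aligner, counter, annotation and the test behind the authors' p-values were not given in the sources used here. Processing notes of the submitters name the build mm10, but only 543 of 25732 genes (2.11%) start where the GRCm38 annotation has them, so gene coordinates are as deposited and were not combined with another annotation. The promoter windows come from RefSeq alone.

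The authors deposited raw read counts per gene in 2 tables that share the Hyp libraries. They also deposited a log2 fold change, a p-value and an adjusted p per gene, used only where named as the authors', and a gene length in bases (other values, deposited as such). The 40 other columns per library (normalized values and FPKM) were not used. Tables of 28216 and 28110 genes had 27122 in common, with identical Hyp counts. Entries without a name (299, 0.219% to 0.363% of counts) were left out, which left 26823. Libraries within a group differed by at least 8.23 in chi-square per degree of freedom, so none was a copy.

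Counts were tested with edgeR 4.0.16 in R 4.3.3 (TMM, filterByExpr, quasi-likelihood F test, 15 libraries in 1 fit, a mean per group), adjusted by Benjamini-Hochberg over 15789 genes and called below 0.05. Every adjusted p comes from this test unless another is named. The SE is the log2 fold change over the square root of F, and intervals are 95%. CPM uses TMM-scaled library sizes, and log2 CPM a prior count of 2. Each mouse gave 1 library, so p-values measure the spread between mice. Reads carry no molecular identifiers.

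The 8 genes and all gene lists were chosen with earlier results of these data known. Beyond the 8, each pathway list gave any called gene, its 2 genes with the smallest unadjusted p in Hyp against WT and its 2 in cFGF23-Hyp against Hyp, and the gene most like each of the 8 whose log2 CPM averaged at least 1. Groups follow the sample titles. Mice were not paired by replicate number, since the labels do not say that these numbers pair mice across groups. Of 15 same-numbered pairs of libraries, 4 had a correlation of deviations above 0.1. Differently numbered pairs were not compared, so this count cannot decide on pairing. Alternatives were DESeq2 1.42.0 and its size factors, limma-voom (limma 3.58.1), other filters, 2-group fits, a replicate block, WT_5 placed in Hyp, libraries left out, and, added after the data were seen, removal of the length trend.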

Additional observations from a re-analysis of the deposited data

Results flagged for a closer look

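A library far from the other 4 of its group was found in 3 of 84 groups of 5 values examined, where chance flags about 1 in 20. Car4 had 228 CPM in cFGF23-Hyp_3, against 142 to 166 CPM in the other cFGF23-Hyp libraries. Irs2 had 19.4 CPM in cFGF23-Hyp_3, against 31.9 to 32.7 CPM in the others. Slc20a1 had 45.4 CPM in Hyp_5, against 37.9 to 39.9 CPM in the other Hyp libraries. The library cFGF23-Hyp_3 also stood apart on the first principal component and in the length trend, and its part in these values was not tested.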

How the results depend on the processing

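Over 26 alternatives, Car4 alone of the 8 genes was called in Hyp against WT (1 gene) with DESeq2 or its size factors, with limma-voom, without a filter, in 2-group fits, and with WT_5 and cFGF23-Hyp_5 left out or the length trend removed. With WT_5, cFGF23-Hyp_5 and cFGF23-Hyp_3 left out, 2 were called (Car4 and Fbp1), and 1 in cFGF23-Hyp against WT (Slc9a3). Leaving out 1 library gave 0 to 1 in Hyp against WT, with Car4 called when WT_5 or library 3, 4 or 5 of cFGF23-Hyp was out. In cFGF23-Hyp against Hyp none of the 8 was called under any alternative.

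Genes called in Hyp against WT, 54 in the analysis reported, numbered 356 with DESeq2, 516 in the 2-group fit, 97 with WT_5 in Hyp, 228 without WT_5 and cFGF23-Hyp_5, 1527 without these and cFGF23-Hyp_3, and 86 without the length trend. Leaving out 1 library gave 7 to 345, with 345 without cFGF23-Hyp_3 and 160 without WT_5. For cFGF23-Hyp against Hyp the counts were 116 with DESeq2, 2 with limma-voom, 67 without 2 libraries, 63 without 3, and 0 to 25 with 1 left out (25 without cFGF23-Hyp_5). For cFGF23-Hyp against WT they were 6 with DESeq2, 1 with WT_5 in Hyp, 177 without 2 libraries, 583 without 3, and 0 to 3 with 1 left out. The replicate block gave 15 called genes in Hyp against WT and 0 in the other comparisons, and 0 of the 8 genes, with an adjusted p of 0.0968 for Car4. It changed no call on the 8.

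Signs turned for Slc38a3 in Hyp against WT with WT_5 in Hyp (-0.056). Without the 3 libraries they turned in cFGF23-Hyp against Hyp for Fbp1 (-0.039), Sqor (-0.086) and Ash2l (-0.012), and in cFGF23-Hyp against WT for Car2 (-0.063) and Ednrb (0.15). With 1 library left out, Car14 in cFGF23-Hyp against WT ran from -0.096 (without cFGF23-Hyp_4) to 0.30. Calls were gained in 28 values of the other named genes over all alternatives. The causes were not tested. Another 58 turns of sign, in uncalled values that moved by less than 1 SE, were counted as no change. With 5 mice per group, SEs of 0.08 to 0.21 on the log2 scale limit what could be told apart for the 8 genes.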
